A study of Mus musculus with 4 samples.

Results

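Piwil4, Dnmt3b and Morc4, 3 genes connected with silencing in the germ line or belonging to families known for it, were followed in reporter-positive cells sorted from the mouse testis. They were taken by name from the authors' deposited table of probe sets that differ between the populations, which held 374 probe sets. The names matched 3 of them, 1 for each gene. In all, 226 genes could be named through those descriptions, and the array held 45037 non-control probe sets. The authors had selected that table on the same 4 arrays, with a 2-fold threshold, so the 3 genes had to differ and their differences are given below as a description, with no test. Other probe sets for these genes could not be looked up, because only that table paired probe sets with names.

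The cells came from 2-week-old mice on a 129SvJae/BL6 background, all carrying the Sox2GFP reporter, in which green fluorescent protein follows Sox2. Both groups were positive for the reporter, and the presence of ckit, a receptor tyrosine kinase that binds stem cell factor, divided Sox2GFP+ckit+ from Sox2GFP+ckit- cells (ckit+ and ckit- below). Each group had 2 arrays labelled as biological replicates, each from a pool of 20 testes, with 20000 to 90000 sorted cells in a sample and 5 ng of total RNA amplified. The labels describe the ckit- cells as able to regenerate damaged tubules and the ckit+ cells as unable to. Pooling means that the spread between arrays is a spread between pools, not between single mice.

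Germ cells silence transposable elements by several layers that act on the same sequences. PIWI proteins carry small RNAs, the piRNAs, that match transposon transcripts. In fetal male germ cells the nuclear PIWI protein MIWI2, the product of Piwil4, directs new DNA methylation to those elements. De novo DNA methyltransferases set new methyl groups, and Dnmt3b is one of these enzymes, though its part in the step directed by MIWI2 was not examined here. MORC proteins are ATPases that bind and compact chromatin. In mice the founding member of that family, Morc1, is needed for transposon silencing in the male germ line, and the role of Morc4 in the testis is less defined.

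Because CG dinucleotides are the sites that DNA methyltransferases modify, the promoter windows of the 3 genes are shown with every CG in capitals. RefSeq windows on GRCm38.p6 cover 250 bases before and 50 bases after an annotated start and are written 5′ to 3′ on the gene's strand. All 3 genes matched by symbol. The windows are chr9:14740623-14740922 on the minus strand for Piwil4, chr2:153649199-153649498 on the plus strand for Dnmt3b and chrX:139871605-139871904 on the minus strand for Morc4.
Piwil4: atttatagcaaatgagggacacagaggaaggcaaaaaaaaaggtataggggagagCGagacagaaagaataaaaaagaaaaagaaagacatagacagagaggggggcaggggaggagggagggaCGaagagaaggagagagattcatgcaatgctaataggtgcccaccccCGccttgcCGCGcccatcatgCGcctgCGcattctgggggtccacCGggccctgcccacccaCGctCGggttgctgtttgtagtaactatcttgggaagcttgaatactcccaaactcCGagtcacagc
Dnmt3b: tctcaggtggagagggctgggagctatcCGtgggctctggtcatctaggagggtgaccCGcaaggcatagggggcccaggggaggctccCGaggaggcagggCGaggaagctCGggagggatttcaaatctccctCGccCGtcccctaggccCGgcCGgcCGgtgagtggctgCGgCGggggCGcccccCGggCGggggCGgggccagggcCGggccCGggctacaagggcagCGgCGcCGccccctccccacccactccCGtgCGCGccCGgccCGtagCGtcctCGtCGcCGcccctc
Morc4: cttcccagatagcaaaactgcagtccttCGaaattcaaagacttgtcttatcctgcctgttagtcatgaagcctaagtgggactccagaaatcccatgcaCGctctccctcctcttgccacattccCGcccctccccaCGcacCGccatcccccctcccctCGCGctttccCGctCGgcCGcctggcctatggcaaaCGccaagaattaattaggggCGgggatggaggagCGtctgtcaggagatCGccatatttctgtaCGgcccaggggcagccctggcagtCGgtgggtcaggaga

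The Dnmt3b window was the richest of these in CG, with 30 dinucleotides and a GC content of 76.0%, and 88.3% of the 32851 windows in the table held fewer. Morc4 had 16 CG dinucleotides (58.7% GC, more than 67.0% of windows), and Piwil4 had 11 (52.7% GC, more than 58.6% of windows). A second, internal start of Piwil4 has a window with 0 CG dinucleotides, which is not printed. Observed over expected CG, which corrects for base composition, was 0.69 for Dnmt3b, 0.64 for Morc4 and 0.54 for the first window of Piwil4. The median over all windows was 7 dinucleotides, with quartiles of 3 and 20, so the 3 windows lay above the median and Dnmt3b alone lay above the upper quartile. No methylation was measured, and the counts describe the reference sequence only.

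**Figure D1:**
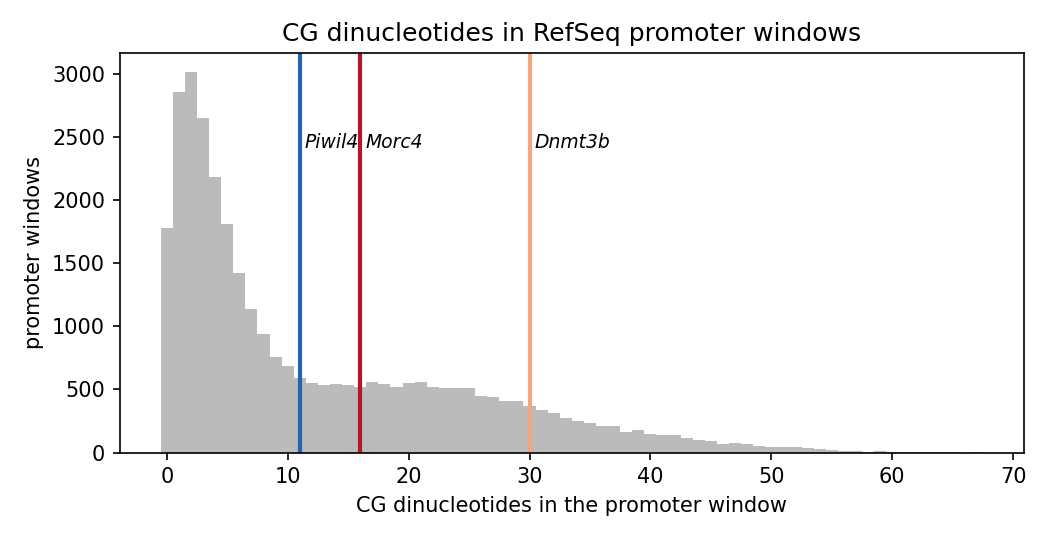
Histogram of CG dinucleotides per RefSeq promoter window (x axis, count; y axis, number of windows) over 32851 windows, with lines at the first windows of Piwil4, Morc4 and Dnmt3b. The lines stand at 11, 16 and 30, to the right of the main peak of windows with few CG.

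A search of both strands for 3 short motifs, chosen after the windows had been read, found 1 match in the printed windows. The E2F motif TTTCCCGC, bound by cell cycle transcription factors, begins at base 167 of the Morc4 window and occurs in 1.07% of all windows. Neither the E-box CACGTG (7.15% of windows) nor AGGTCA, the half-site of retinoic acid receptors (16.3% of windows), had a match in any window of the 3 genes. A match in these letters is not evidence of binding, and the absence of one says nothing about the factor.

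The probe sets differ in what they can resolve. For Piwil4, the name of the probe set, 1447564_x_at, carries a suffix (x_at) that marks probes able to bind related sequences as well, so its signal may include other transcripts. For Dnmt3b, the probe set 1418351_a_at is described as an alternatively spliced form and its suffix (a_at) marks probes shared by transcripts of 1 gene. RefSeq lists 22 transcripts of Dnmt3b. Which of them the probe set reads could not be checked, and its value cannot tell apart those that it does read. Morc4 was read by the probe set 1434436_at, which has neither suffix.

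Piwil4 was higher in ckit- cells. On the log2 scale its values were 9.62 and 9.80 in the ckit- arrays, and 7.86 and 8.02 in the ckit+ arrays. Both ckit- arrays lay above both ckit+ arrays, with a gap of at least 1.60 between any array of one group and any of the other. The mean level was 9.71 ± 0.130 for ckit- against 7.94 ± 0.109 for ckit+ cells (log2, SD, n = 2), a log2 difference (ckit+ minus ckit-) of -1.77 ± 0.169 (limma's standard error), which is 3.41-fold. In bulk samples such as these, fewer cells of a type and less RNA per cell cannot be told apart.

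Dnmt3b was higher in ckit+ cells. Its log2 values were 7.92 and 7.94 in the ckit- arrays, and 9.13 and 8.93 in the ckit+ arrays. The ckit- arrays were nearly equal and both lay below the ckit+ arrays, with a smallest gap of 0.99. Mean levels of 7.93 ± 0.011 for ckit- and 9.03 ± 0.136 for ckit+ cells (log2, SD, n = 2) gave a log2 difference of 1.10 ± 0.164, or 2.14-fold. This was the smallest difference of the 3 genes and close to the threshold by which the table was made: the ratio of Dnmt3b in the authors' deposited table was 2.04, against a lowest listed ratio of 2.0. With the arrays quantile normalized again the log2 difference was 0.98, just under 2-fold.

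Morc4 was also higher in ckit+ cells, and by more. Its log2 values were 6.40 and 6.47 in the ckit- arrays, and 8.53 and 8.32 in the ckit+ arrays. The groups did not overlap, and the smallest gap between their arrays was 1.84. Mean levels of 6.44 ± 0.052 for ckit- and 8.42 ± 0.152 for ckit+ cells (log2, SD, n = 2) gave a log2 difference of 1.99 ± 0.168, or 3.97-fold. In ckit- cells 50.6% of probe sets lay below Morc4, against 89.9% for Piwil4 and 74.0% for Dnmt3b. How far the ckit- signal of Morc4 exceeds background was not measured.

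**Figure D2:**
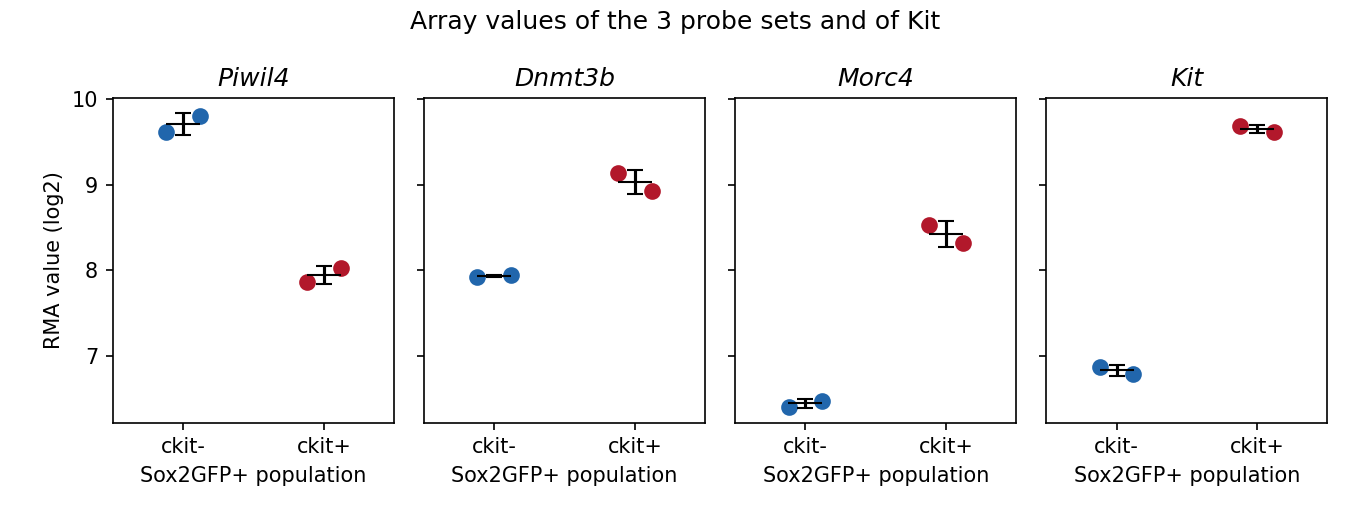
RMA values (y axis, log2) of the probe sets of Piwil4, Dnmt3b, Morc4 and the brighter Kit probe set in ckit- and ckit+ cells (x axis); points are the 2 arrays of a population and bars the mean with SD. Piwil4 is higher in both ckit- arrays (9.62 and 9.80 against 7.86 and 8.02), while the other 3 panels are higher in both ckit+ arrays.

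Values of one population lay wholly above those of the other in 3 of the 3 genes, against 48.6% of all probe sets (24.2% with ckit- cells above, 24.5% with ckit+ cells above), so the lack of overlap alone sets the genes little apart. The size of the difference was less common, as the selection required. Means at least 2-fold apart, as for all 3 genes, were found in 1.49% of probe sets, 0.815% towards ckit- and 0.675% towards ckit+ cells. Only 11 probe sets of 45037, Morc4 included, were at least as far apart as Morc4 towards ckit+ cells (0.0244%). For Piwil4 the number towards ckit- cells was 58 (0.129%), and for Dnmt3b towards ckit+ cells it was 207 (0.460%). Over the whole array, limma called 139 probe sets at an adjusted p under 0.05, or 0.309%, of which 87 lay towards the ckit- and 52 towards the ckit+ population. With any 1 array left out limma called 0 (4513 to 6422 at an unadjusted p under 0.05), and a test of each probe set without pooled spread, as the authors used, called 1, while an intensity trend gave 419 (215 towards ckit- and 204 towards ckit+ cells) and a replicate block 554 (300 and 254). No call is read for the 3 genes, since they were chosen on this contrast.

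**Figure D3:**
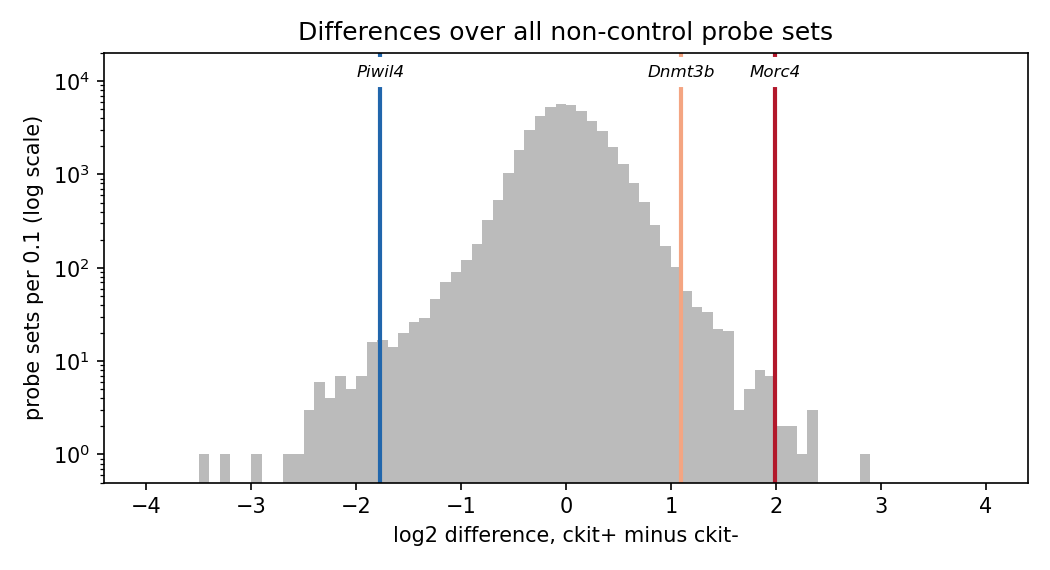
Histogram of the log2 difference (x axis, ckit+ minus ckit-) over 45037 non-control probe sets, with probe sets per bin of 0.1 on a log scale (y axis), and lines at Piwil4, Dnmt3b and Morc4. The lines stand at -1.77, 1.10 and 1.99, outside the bulk of the distribution on both sides of 0.

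Each pair of same-numbered arrays gave the same direction, as any pairing must where the groups do not overlap. For Piwil4 the ckit+ minus ckit- difference was -1.75 between arrays numbered 1 and -1.78 between arrays numbered 2. Dnmt3b gave 1.20 and 0.99, and Morc4 gave 2.13 and 1.84, so both genes were further apart in the arrays numbered 1. Between replicates, the ckit- arrays differed by 0.18 for Piwil4, 0.02 for Dnmt3b and 0.07 for Morc4, against a median of 0.21 over all probe sets. In ckit+ cells these gaps were 0.15, 0.19 and 0.21, near the median of 0.19.

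Since Piwil4 was lower and the others were higher in ckit+ than in ckit- cells, their differences were also set against each other, which cancels any scaling of a whole array. The log2 difference of Morc4 exceeded that of Piwil4 by 3.76, with 3.89 and 3.63 from the arrays numbered 1 and 2. Dnmt3b exceeded Piwil4 by 2.87 (2.96 and 2.78). Morc4 exceeded Dnmt3b by 0.89 (0.93 and 0.85). All of these values come from the selected contrast and were not tested.

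In the authors' deposited table, whose normalization is not stated in any header or label used, the values of the 3 genes were slightly smaller in difference. In the authors' deposited table Piwil4 averaged 9.38 (ckit-) and 7.77 (ckit+), a ratio of 3.05, and ranked 60 among the 196 listed probe sets higher in ckit- cells. Morc4 had 6.34 and 8.30 in the authors' deposited table, a ratio of 3.91, and ranked 9 among the 178 higher in ckit+ cells. Dnmt3b had 7.75 and 8.78 in the authors' deposited table and ranked 162 of those 178. The same arrays lie behind both tables, so this is no second measurement.

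Other genes of the silencing pathways could not be read. Of 59 genes on 4 lists, only the 3 genes themselves had a named probe set: 1 of 22 for the piRNA pathway, 1 of 18 for DNA methylation and its removal, 1 of 5 for the MORC family and 0 of 14 for H3K9 methylation and heterochromatin. The partners of Piwil4 in piRNA production, the cofactor Dnmt3l and the other MORC genes were therefore not analysed here, which says nothing about their levels. A few chromatin genes outside these lists, with differing activities and no list of their own, were picked from the deposited table after their values had been seen. Probe sets described there as macroH2A2, a histone variant linked to repressed chromatin, and as H2A histone family member Y3, which may be the same gene under another name, were higher in ckit- cells, with log2 differences of -1.83 ± 0.192 and -1.56 ± 0.205. Kdm4c, which removes methyl groups from lysines of histone H3, including a repressive mark, was higher in ckit+ cells by 1.12 ± 0.188 on the log2 scale.

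Kit, whose product was the sorting marker, was higher in ckit+ cells in both named probe sets, 1452514_a_at and 1415900_a_at, with log2 differences of 2.83 ± 0.158 and 2.26 ± 0.287. Stage markers of spermatogonia also differed: of 19 genes listed for undifferentiated spermatogonia 8 were named, with 8 of 8 higher in ckit- cells (log2 differences from -2.24 to -1.06). For differentiating spermatogonia 5 of 11 were named, Dnmt3b and Kit among them, and 5 of 5 were higher in ckit+ cells (1.10 to 2.83). All of these had been selected by the authors on the same arrays, so the counts show no more than how the genes lie beside Piwil4, Dnmt3b and Morc4. Dmc1, a recombinase of meiosis and the only one of 12 meiotic genes with a name, differed by 0.95 ± 0.169 on the log2 scale, ckit+ cells being higher. From other cell types, 1 of 8 endothelial genes was named: Plvap had log2 values of 6.77 and 6.91 in ckit- and 5.40 and 5.39 in ckit+ arrays. A probe set described as transgelin had a log2 difference of -0.86 ± 0.157, but whether it reads the smooth muscle gene of that name or a relative could not be checked. Whether other cells in the sorted samples bear on the 3 genes was not tested, and the remaining markers for spermatids, Sertoli, Leydig, peritubular and immune cells had no named probe set.

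Likeness of pattern was measured among the 226 named genes as the distance between array profiles after each probe set's own mean was removed, so it reflects the direction, size and replicate gaps over 4 arrays. Nearest to Piwil4 were Smim22, a small membrane protein gene (distance 0.091 log2 units), the zinc finger gene Zfp462 (0.092) and Etv5, a transcription factor induced by GDNF (0.121). Their log2 differences were -1.80, -1.70 and -1.77. Nearest to Dnmt3b were Rrm2, a subunit of ribonucleotide reductase (0.080), Lonrf1 (0.084) and Socs4, a suppressor of cytokine signalling (0.097), with differences of 1.12, 1.12 and 1.02. Morc4 had more distant neighbours in Cnpy1 (0.156), the growth factor receptor gene Met (0.239) and the adaptor gene Grb10 (0.239), with differences of 1.91, 2.18 and 1.87. Cnpy1 was far dimmer than Morc4, with log2 values of 2.62 and 2.86 in the ckit- and 4.71 and 4.57 in the ckit+ arrays. In ckit- cells only 0.977% of probe sets lay below it, so its difference may lie near background. All of these genes had been selected for the same contrast on the same 4 arrays, so the distances only describe the profiles.

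**Figure D4:**
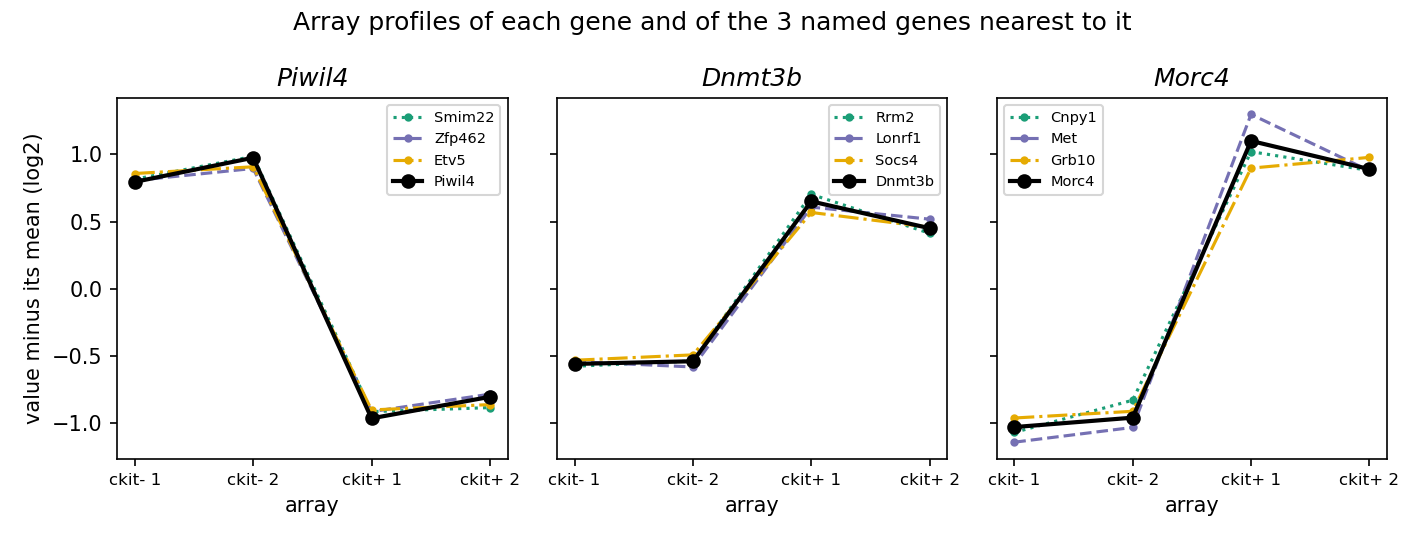
Values minus each probe set's mean (y axis, log2) on the 4 arrays (x axis) for Piwil4, Dnmt3b and Morc4 (black) and the 3 named genes nearest to each (coloured broken lines). Piwil4 and its neighbours step down by 1.70 to 1.80 from ckit- to ckit+ arrays; Dnmt3b and Morc4 step up with theirs.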

How the data were processed

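RNA from 4 sorted samples was hybridised to 4 one-colour oligonucleotide arrays. The deposited value table holds log2 expression values that the authors made with RMA, per the submitters' processing notes; its version and the array model are not given in the sources used here. A second deposited table holds log2 group means with standard errors, a ratio (linear fold), p-values and adjusted p-values, which the authors obtained by a t-test corrected by Benjamini and Hochberg for 605 tests, per the file headers.

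Array medians lay between 6.39 and 6.42 and lower quartiles between 4.93 and 5.04. The arrays were thus close but not identical in distribution, and values were used as deposited. Limma 3.58.1 in R 4.3.3 (lmFit, then eBayes; two-sided p-values adjusted by Benjamini-Hochberg, threshold 0.05) was fitted to all 45037 non-control probe sets without covariates. Having 4 arrays limits the precision, and an exact permutation of 2 against 2 allows no p below 0.333. Arrays correlated over probe sets with r = 0.987 and 0.989 within and 0.980 to 0.984 between populations.

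Of the deposited table's 374 probe sets 260 were named: 61 by RefSeq accession, 104 by symbol and 95 by full name. The text names each probe set of the 3 genes and of Kit, every listed gene with a named probe set (those of the spermatogonia lists by their range) and the 3 nearest profiles. The members and lists were chosen with earlier results of these data known.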

Additional observations from a re-analysis of the deposited data

How the results depend on the processing

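The log2 differences of Piwil4, Dnmt3b and Morc4 kept their direction under every alternative run: the replicate number as a block, quantile normalization again, median centring, each array left out and the authors' deposited table. Leaving out 1 array gave -1.86 to -1.68 for Piwil4, 1.00 to 1.19 for Dnmt3b and 1.88 to 2.10 for Morc4. The groups of these genes do not overlap, so leaving out an array cannot turn a sign. Set against the SD of the arrays pooled over both populations, 2 values moved by more: Piwil4 to -1.61 in the authors' deposited table (SD 0.12) and Dnmt3b to 0.98 with quantile normalization again (SD 0.097). Each move was smaller than the standard error of that gene's difference, 0.169 for Piwil4 and 0.164 for Dnmt3b. The cause was not tested.

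The 139 probe sets called by limma over the whole array became 419 with an intensity trend and 554 with the replicate block. A t-test on each probe set's own spread called 1 (5346 at an unadjusted p under 0.05), which was not among the 139. Without any 1 of the 4 arrays, ckit- replicate 1 or 2 or ckit+ replicate 1 or 2, limma called 0 to 0, with 4513 to 6422 at an unadjusted p under 0.05; the lone array is then assumed to vary like the other group. The dim filter, quantile normalization again and median centring gave 199, 133 and 142. The block left the 3 differences as they were, since the design is balanced. Deviations of arrays with the same number correlated at 0.26 over probe sets, and nothing in the labels ties a number to a shared litter or day.

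A mean over the probe sets of a gene could not differ with 1 probe set each. Calls for the other silencing genes, with their alternatives, were not run, as none had a named probe set. No detection limit was measured, so how far signal exceeds background is not known here.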
